A study of Mus musculus with 6 samples.

Results

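The 10 genes described here, *Cd36*, *Fabp1*, *Fabp2*, *Mogat2*, *Dgat1*, *Dgat2*, *Mttp*, *Apob*, *Apoa1* and *Apoa4*, encode the machinery with which enterocytes take up dietary fat and ship it as chylomicrons. They were chosen by name, and each was read from its probe set with 1 gene symbol and the highest mean over the arrays. They are 10 of 19938 genes with such a probe set, on an array of 30177 probe sets, and each of the 10 had 1 such probe set. Villi from the whole length of the intestine were loosened mechanically and pelleted, and their RNA was hybridised to 6 arrays. The mutant group, *Trpm7*-intestine KO (Trpm7fl/fl;Villin1-Cre), and the control group, Trpm7fl/fl littermates, had 3 arrays each. All mice were aged 5 days (P5), both groups carried the floxed *Trpm7* alleles, and only the mutants carried the Cre transgene, which the *Villin1* promoter drives in enterocytes along the whole intestine. The strain is C57BL/6 by the labels, but by the methods of the study the floxed mice were 129S6/SvEvTac and the Cre mice C57BL/6J. A legend of the study gives the replicates of both groups as littermates, and the labels leave the sex as unknown. Values are log2 signals, so that a difference of 1 is a 2-fold difference.

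In the suckling gut, milk fat is cleaved by lipases into fatty acids and monoacylglycerols, which enter the enterocyte and are bound by small cytosolic proteins. At the endoplasmic reticulum, monoacylglycerol and diacylglycerol acyltransferases rebuild triglyceride from them. The microsomal triglyceride transfer protein then loads this triglyceride onto apolipoprotein B, and the resulting chylomicron, which also carries apolipoproteins of the A family, leaves through the Golgi for the lymph.

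The targeted transcript was examined first. *Trpm7* signals were 8.03, 7.79 and 7.88 in mutant arrays, against 9.11, 8.96 and 9.03 in control arrays, a fall of 1.13 on the log2 scale (adjusted p = 0.00019 from limma). Whether its probe set covers the deleted sequence is not known here. Median signals of the arrays were between 6.24 and 6.30. *Xist* was high and the mean Y-linked signal low in mutant replicate 1 (10.18 and 3.83) and control replicate 1 (10.48 and 4). In mutant replicates 2 and 3, *Xist* was low (4.76 and 5.26) and the mean Y-linked signal high (7.69 and 7.9). No mutant array was high in both, so the groups differed in these transcripts. Control replicates 2 and 3 held both *Xist* (9.82 and 9.66) and Y-linked transcripts (mean signals 7.22 and 7.37). *Xist* is normally made by female cells and Y-linked genes by male cells, and whether these arrays each hold RNA of a single littermate was not tested. Both arrays also differed less from each other (SD of the differences 0.184) than the other pairs of arrays of a group (0.239 to 0.280). In mutant replicate 3, hepatocyte transcripts stood out. *Alb* was 5.55, 8.57 and 12.13 in mutant replicates 1 to 3, against 5.69, 6.99 and 7.07 in control arrays. *Fgb* was 5.24, 5.34 and 10.03 in mutant arrays and 5.56, 5.23 and 5.31 in control arrays. Since hepatocytes make *Fabp1*, *Apob*, *Mttp* and *Apoa1* too, the test of the 10 genes is also given without that array.

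Of the 10 genes, 1 rose in mutant villi (*Cd36*), 4 fell (*Fabp1*, *Mogat2*, *Dgat2* and *Apob*) and 5 did not pass the test (*Fabp2*, *Dgat1*, *Mttp*, *Apoa1* and *Apoa4*). A gene was called where the p-value from limma, adjusted over all probe sets, was at most 0.05. By the same rule, 8.04% of all probe sets were called higher and 8.82% lower. The 10 genes were bright, with means from 10.38 to 14.50, where the median probe set had 6.28. Among the 2163 probe sets at least as bright as the dimmest of the 10, 14.6% were called higher and 14% lower. Mutant and control values did not overlap for 9 of the 10 genes, 7 lower and 2 higher in mutants, against 34.5% of all probe sets and 59.5% of those equally bright. The median change of the 10 genes was -0.11, and that of all probe sets 0.00. With bulk RNA, fewer enterocytes and less RNA of a gene per enterocyte cannot be told apart.

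**Figure D1:**
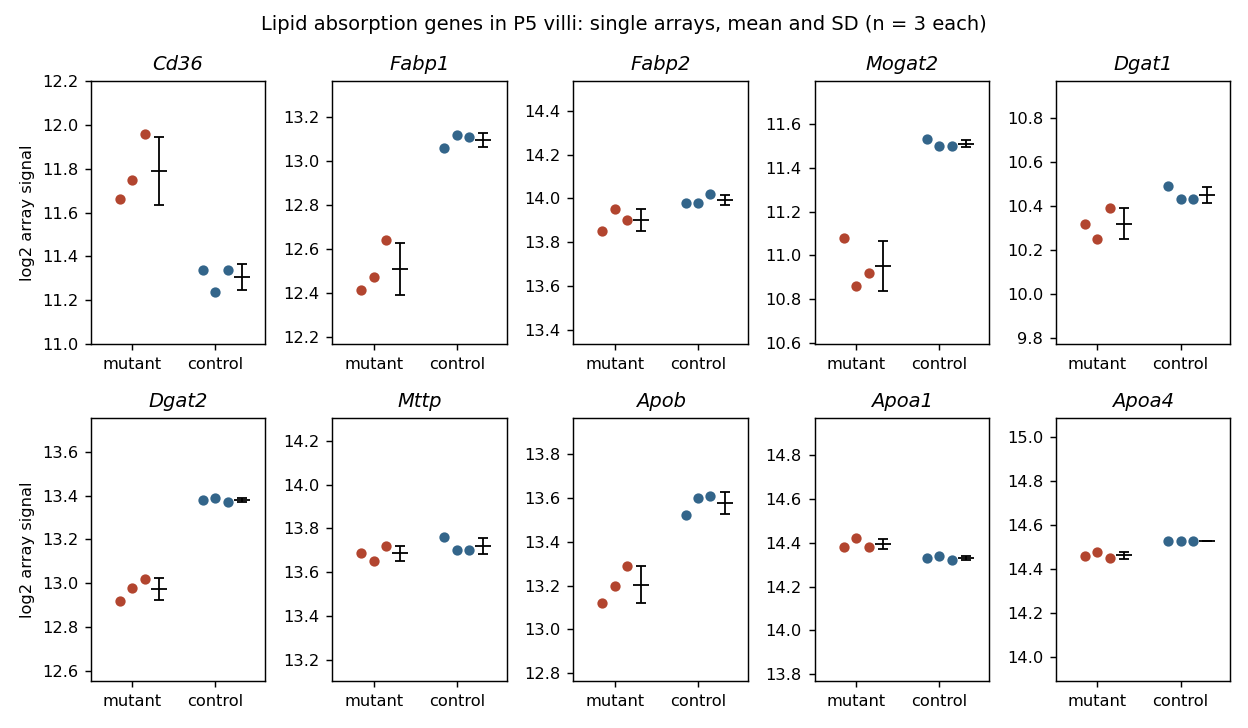
Log2 array signal of the 10 genes in 3 mutant (red, left) and 3 control (blue, right) arrays of P5 villi, with 1 point per array and bars for mean and SD. All panels span the same log2 range. *Cd36* lay higher in every mutant array, *Fabp1*, *Mogat2*, *Dgat2* and *Apob* lay lower by gaps of 0.23 to 0.42, and the points of *Mttp* overlapped.

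At the cell surface, *Cd36*, the scavenger receptor that binds long-chain fatty acids, was the 1 gene of the 10 that rose. Its signals were 11.66, 11.75 and 11.96 in mutant arrays, against 11.34, 11.24 and 11.34 in control arrays. The lowest mutant array lay 0.32 above the highest control array. The mean was 11.79 ± 0.15 in mutant and 11.31 ± 0.06 in control villi (SD, n = 3 each), a 1.40-fold higher level (log2 change 0.48, 95% interval 0.27 to 0.70, adjusted p = 0.011 from limma). Without mutant replicate 3, in which both *Cd36* and the hepatocyte transcripts were highest, the change was 0.40 (adjusted p = 0.023 from limma).

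*Cd36* is also made by microvascular endothelium, macrophages and adipocytes, so their markers were read in the same arrays. As a background to their counts, 8.04% of all probe sets were called higher and 8.82% lower. Of 10 markers of blood endothelium, none was called higher and 2 were lower, and their summed log2 signal was 11.18 to 11.44 in mutant arrays and 11.31 to 11.43 in control arrays. *Tek* was the lowest (-0.81, adjusted p = 0.0059 from limma) and *Plvap* the highest of them (0.26, adjusted p = 0.113 from limma). Of 10 macrophage markers, 1 was lower (*Adgre1*, -0.54, adjusted p = 0.0076 from limma), and their sum was 11.16 to 11.40 in mutant and 11.12 to 11.40 in control arrays. *Cd14* had the highest change of these 10, with 7.25, 7.02 and 9.41 in mutant arrays against 6.03, 6.12 and 6.33 in control arrays (1.73, adjusted p = 0.07 from limma). For 4 adipocyte markers the sum was 6.89 to 7.01 in mutant and 6.80 to 6.95 in control arrays, none was called, and *Adipoq* lay between 3.63 and 3.90, below the median of every array. None of 6 lymphatic endothelial markers was called either, with sums of 9.12 to 9.30 in mutant and 9.11 to 9.23 in control arrays. Among 8 genes of smooth muscle and fibroblasts, 2 were higher, *Dcn* the most (1.03, adjusted p = 0.011 from limma), and their sum was 11.41 to 11.77 in mutant and 10.99 to 11.41 in control arrays. Outside the marker lists, and chosen after its values were seen, *Fabp4*, the fatty acid-binding protein of adipocytes, macrophages and capillary endothelium, rose, with 7.24, 7.06 and 6.98 in mutant arrays against 6.40, 6.06 and 6.13 in control arrays (0.90, adjusted p = 0.0016 from limma). Its control mean lay below the median signal of the arrays, and its call held in all 6 fits with 1 array left out. The part of these cells in the *Cd36* result was not tested.

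The fatty acid-binding proteins carry long-chain fatty acids through the cytosol, and absorptive enterocytes make a liver form (*Fabp1*) and an intestinal form (*Fabp2*). *Fabp1* signals were 12.41, 12.47 and 12.64 in mutant arrays, against 13.06, 13.12 and 13.11 in control arrays. All mutant arrays lay at least 0.42 below all control arrays. The mean fell to 12.51 ± 0.12 in mutant villi, against 13.10 ± 0.03 in control villi (SD, n = 3 each), which left 66.4% of the control level (log2 change -0.59, 95% interval -0.78 to -0.40, adjusted p = 0.0026 from limma). *Fabp1* was also highest, among mutant arrays, in the one rich in hepatocyte transcripts, and without it the change was -0.66 (adjusted p = 0.0025 from limma).

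*Fabp2* signals were 13.85, 13.95 and 13.90 in mutant arrays and 13.98, 13.98 and 14.02 in control arrays. The groups came within 0.03 of each other. The mutant mean was 93.7% of the control mean (log2 change -0.09, 95% interval -0.25 to 0.07, adjusted p = 0.429 from limma). The 95% intervals of *Fabp1* and *Fabp2* did not overlap. *Fabp2* was among the 100 brightest probe sets of every array, and whether such signals respond to RNA level as those of *Fabp1* do was not tested. Within each array, the log2 ratio of the *Fabp1* to the *Fabp2* signal was -1.44, -1.48 and -1.26 in mutant and -0.92, -0.86 and -0.91 in control arrays, a difference of -0.50. Of 6 such pairs of genes, the ratios of 5 did not overlap between the groups, each with an exact two-sided permutation p of 0.1, the smallest that 3 arrays against 3 allow (0.12 after Benjamini-Hochberg adjustment over the 6 pairs). None of the 6 passed, and the pair of *Cd36* and *Fabp1* is among the 5 by choice, since it sets the gene that rose against the one that fell the most. Such a ratio is a description of 2 probe sets within an array, and its level has no meaning of its own.

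The RefSeq table of sequences before gene starts (build GRCm38.p6) held 7 of the 10 genes. The 250 bases before the start are printed for *Fabp1* and *Fabp2*, and for *Apob* and its loading partner *Mttp*, since in both pairs the first gene fell and the second did not pass the test. Capitals mark matches to the motifs searched, on either strand: CAAAGTCCA and its part CAAAGTCC for HNF4, AGATAA for GATA factors and TATAAA for the TATA box. The sequences run along the strand of the gene.
Fabp1 (chr6:71199629-71199878, plus strand): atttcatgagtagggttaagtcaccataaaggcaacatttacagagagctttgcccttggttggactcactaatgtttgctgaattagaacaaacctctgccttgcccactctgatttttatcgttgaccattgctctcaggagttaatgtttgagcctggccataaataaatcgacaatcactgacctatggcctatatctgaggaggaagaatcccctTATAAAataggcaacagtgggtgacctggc
Fabp2 (chr3:122894822-122895071, plus strand): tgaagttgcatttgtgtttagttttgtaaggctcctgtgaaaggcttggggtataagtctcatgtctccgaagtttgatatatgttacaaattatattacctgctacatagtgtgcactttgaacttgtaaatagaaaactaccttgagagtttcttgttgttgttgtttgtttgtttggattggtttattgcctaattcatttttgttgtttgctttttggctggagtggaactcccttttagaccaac
Apob (chr12:7977427-7977676, plus strand): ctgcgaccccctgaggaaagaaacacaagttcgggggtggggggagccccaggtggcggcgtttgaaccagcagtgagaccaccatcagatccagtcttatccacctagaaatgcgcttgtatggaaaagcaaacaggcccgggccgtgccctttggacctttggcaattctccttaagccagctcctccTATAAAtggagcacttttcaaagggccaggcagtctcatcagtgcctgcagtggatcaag
Mttp (chr3:138143419-138143668, minus strand): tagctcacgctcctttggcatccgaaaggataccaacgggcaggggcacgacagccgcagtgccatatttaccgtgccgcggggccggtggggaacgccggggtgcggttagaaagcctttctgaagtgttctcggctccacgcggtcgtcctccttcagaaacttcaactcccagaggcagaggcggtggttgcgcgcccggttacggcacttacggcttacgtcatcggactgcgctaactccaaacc
*Fabp1* held TATAAA from base -30, counted back from the start, and *Apob* held TATAAA from base -60. No match was found in the windows of *Fabp2*, *Mttp*, *Apoa1*, *Apoa4* and *Cd36*. Of all 32851 windows, 0.384% held CAAAGTCCA, 1.2% CAAAGTCC, 9.99% AGATAA and 12.4% TATAAA. A match is a description of the letters, not of a bound site, and these data hold no binding or start-site measurement.

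Next, the enzymes of triglyceride synthesis were examined. *Mogat2* encodes the monoacylglycerol acyltransferase that starts re-esterification in the enterocyte. Its signals were 11.08, 10.86 and 10.92 in mutant arrays, against 11.53, 11.50 and 11.50 in control arrays. The control arrays lay within 0.03 of each other and at least 0.42 above every mutant array. The mean fell to 10.95 ± 0.11 in mutant villi, against 11.51 ± 0.02 in control villi (SD, n = 3 each), 68.0% of the control level (log2 change -0.56, 95% interval -0.74 to -0.37, adjusted p = 0.0030 from limma).

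The last step, from diacylglycerol to triglyceride, is shared by 2 enzymes of unrelated sequence. *Dgat2* signals were 12.92, 12.98 and 13.02 in mutant arrays, against 13.38, 13.39 and 13.37 in control arrays. Every mutant array was lower, by at least 0.35. The mean fell to 12.97 ± 0.05 in mutant villi, against 13.38 ± 0.01 in control villi (SD, n = 3 each), 75.4% of the control level (log2 change -0.41, 95% interval -0.57 to -0.25, adjusted p = 0.0059 from limma). *Dgat1*, the enzyme that also esterifies retinol, had signals of 10.32, 10.25 and 10.39 in mutant and 10.49, 10.43 and 10.43 in control arrays. Its groups lay 0.04 apart, with 91.4% of the control level in mutant villi (log2 change -0.13, 95% interval -0.30 to 0.04, adjusted p = 0.287 from limma). The interval of *Dgat1* overlapped that of *Dgat2*. The log2 ratio of *Dgat2* to *Dgat1* within an array was 2.60, 2.73 and 2.63 in mutant and 2.89, 2.96 and 2.94 in control arrays, a difference of -0.28 without overlap (exact permutation p = 0.1).

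*Mogat2* and *Dgat2* are direct neighbours on chromosome 7 in the RefSeq gene order. Both fell, and the log2 ratio of *Mogat2* to *Dgat2* overlapped between the groups, with -1.84, -2.12 and -2.10 in mutant and -1.85, -1.89 and -1.87 in control arrays (exact permutation p = 0.4). Without mutant replicate 3, the change was -0.54 for *Mogat2* (adjusted p = 0.011 from limma) and -0.43 for *Dgat2* (adjusted p = 0.013 from limma).

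Chylomicron assembly joins triglyceride to apolipoprotein B. *Apob*, whose product is the structural protein of the particle, had signals of 13.12, 13.20 and 13.29 in mutant arrays, against 13.52, 13.60 and 13.61 in control arrays. Every mutant array lay below every control array, by at least 0.23. The mean fell to 13.20 ± 0.09 in mutant villi, against 13.58 ± 0.05 in control villi (SD, n = 3 each), 77.2% of the control level (log2 change -0.37, 95% interval -0.55 to -0.20, adjusted p = 0.014 from limma). Of the 6 fits with 1 array left out, 3 did not call *Apob*, namely those without mutant replicate 1 (-0.33, adjusted p = 0.0504 from limma), control replicate 2 (-0.36, adjusted p = 0.0537) and control replicate 3 (-0.36, adjusted p = 0.0514). Without mutant replicate 3 it was -0.42 (adjusted p = 0.018 from limma).

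*Mttp*, which encodes the large subunit of the transfer protein, had signals of 13.69, 13.65 and 13.72 in mutant and 13.76, 13.70 and 13.70 in control arrays. It was the 1 gene of the 10 whose groups overlapped, and mutant villi held 97.7% of the control level (log2 change -0.03, 95% interval -0.19 to 0.12, adjusted p = 0.796 from limma). The log2 ratio of *Apob* to *Mttp* was -0.57, -0.45 and -0.43 in mutant and -0.24, -0.10 and -0.09 in control arrays, a difference of -0.34 without overlap (exact permutation p = 0.1). *Mttp*, like *Fabp2*, was among the 100 brightest probe sets of every array, where the response to RNA level was not tested.

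**Figure D2:**
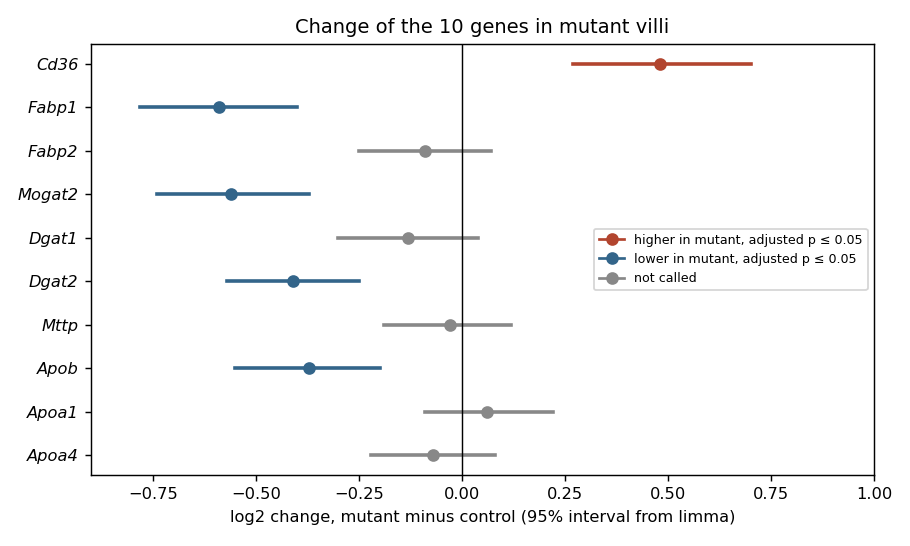
Log2 change of the 10 genes, mutant minus control, with the 95% interval from limma (3 arrays per group), in the order of the text. The interval of *Cd36* (0.27 to 0.70) lies to the right of 0, those of *Fabp1*, *Mogat2*, *Dgat2* and *Apob* lie to the left, and the intervals of the 5 genes that were not called include 0.

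The exchangeable apolipoproteins *Apoa1*, the main protein of high-density lipoprotein, and *Apoa4*, which the intestine secretes with absorbed fat, were read close to the top of the range of the arrays. *Apoa1* signals were 14.38, 14.42 and 14.38 in mutant and 14.33, 14.34 and 14.32 in control arrays, so mutant arrays lay higher by a gap of 0.04 (log2 change 0.06, 95% interval -0.09 to 0.22, adjusted p = 0.586 from limma). *Apoa4* signals were 14.46, 14.48 and 14.45 in mutant arrays and 14.53 in each control array, so mutant arrays lay lower by a gap of 0.05 (log2 change -0.07, 95% interval -0.22 to 0.08, adjusted p = 0.562 from limma). On each of the 6 arrays, the signal of *Apoa4* was also the highest of that array. *Fabp2*, *Mttp*, *Apoa1* and *Apoa4* were among the 100 brightest probe sets of every array, and none of these 4 was called. How far the array signal still follows RNA level that close to its top was not tested. The log2 ratio of *Apoa4* to *Apoa1* was 0.08, 0.06 and 0.07 in mutant and 0.20, 0.19 and 0.21 in control arrays, a difference of -0.13 (exact permutation p = 0.1).

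*Apoa1* and *Apoa4* lie on chromosome 9 in a row with *Apoc3* and *Apoa5*. *Apoc3*, whose product slows the clearance of triglyceride-rich particles, had 13.77, 13.87 and 13.83 in mutant and 14.01, 13.98 and 13.97 in control arrays, lower in each mutant array but not called (-0.16, adjusted p = 0.161 from limma). *Apoa5*, mainly a liver gene, was near the median signal of the arrays, with a change of -0.01 (adjusted p = 0.983 from limma). None of the 4 genes of the row was called.

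The villus preparation was then checked against its label. Among 10 enterocyte markers, 4 were called higher, 1 lower and 5 not called, and their summed log2 signal was 15.92 to 15.99 in mutant and 15.72 to 15.75 in control arrays. For this and the next counts, the shares over all probe sets were 8.04% higher and 8.82% lower. *Vil1*, which encodes the microvillus protein villin, was 12.66, 12.39 and 12.41 in mutant and 12.23, 12.24 and 12.28 in control arrays and was not called. *Krt20*, a keratin of mature villus cells, was the most raised of the 10 (1.37, adjusted p = 0.00011 from limma), and *Lct*, the lactase of the suckling brush border, was the 1 that fell (-0.94, adjusted p = 0.0036 from limma). The keratin gene *Krt8* rose by 0.79 (adjusted p = 0.00083 from limma), while *Alpi* (-0.04, adjusted p = 0.725 from limma) and *Slc5a1* (-0.03, adjusted p = 0.838 from limma) were not called. The higher sum is thus not shared by all these markers. Along the intestine, 3 of 8 markers of the proximal part were lower and 1 higher, from *Cybrd1*, a ferric reductase (-1.06, adjusted p = 0.044 from limma), to *Slc46a1*, the folate transporter (0.38, adjusted p = 0.029 from limma). Of 9 ileal markers 3 were higher and none lower, from *Fgf15* (-0.42, adjusted p = 0.313 from limma) to the bile acid-binding protein gene *Fabp6* (3.87, adjusted p = 0.0034 from limma). *Slc10a2* (2.64, adjusted p = 0.0052 from limma) and *Guca2a* (1.58, adjusted p = 0.0013 from limma) were also called higher. *Slc51a* (-0.05), *Slc51b* (0.06), *Cubn* (0.19), *Amn* (0.19) and *Dab2* (-0.08) were not called, so the ileal markers did not rise as a whole. Sums of the ileal markers were 14.00 to 14.21 in mutant and 13.64 to 13.70 in control arrays, and those of the proximal markers 13.81 to 14.03 in mutant and 13.77 to 13.93 in control arrays. Fat absorption is mainly a task of the proximal small intestine, and the part of regional make-up in the changes of the 10 genes was not tested.

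Of 5 liver markers, *Cps1*, which enterocytes also express, was the 1 called (-0.54, adjusted p = 0.0095 from limma), and *Ahsg* had the highest change, with 4.88, 7.51 and 11.37 in mutant and 4.97, 5.97 and 6.06 in control arrays (2.25, adjusted p = 0.325 from limma). The summed liver signal was 11.93, 12.08 and 13.61 in mutant replicates 1 to 3, against 12.32, 12.62 and 12.62 in control arrays. *Cps1* alone was 11.88, 11.85 and 12.04 in mutant and 12.28, 12.56 and 12.56 in control arrays. Outside mutant replicate 3 the sum is therefore mostly *Cps1*, and it does not rank those arrays by hepatocyte RNA. Of the 10 genes, 6 had their highest mutant value in mutant replicate 3, namely *Fabp1*, *Mttp*, *Apob*, *Dgat1*, *Dgat2* and *Cd36*. Without that array, the 5 called genes were still called, with changes from -0.66 to 0.40. The other 5 were still not called, with -0.09 for *Fabp2*, -0.17 for *Dgat1*, -0.05 for *Mttp*, 0.07 for *Apoa1* and -0.06 for *Apoa4* (adjusted p from limma between 0.241 and 0.741).

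**Figure D3:**
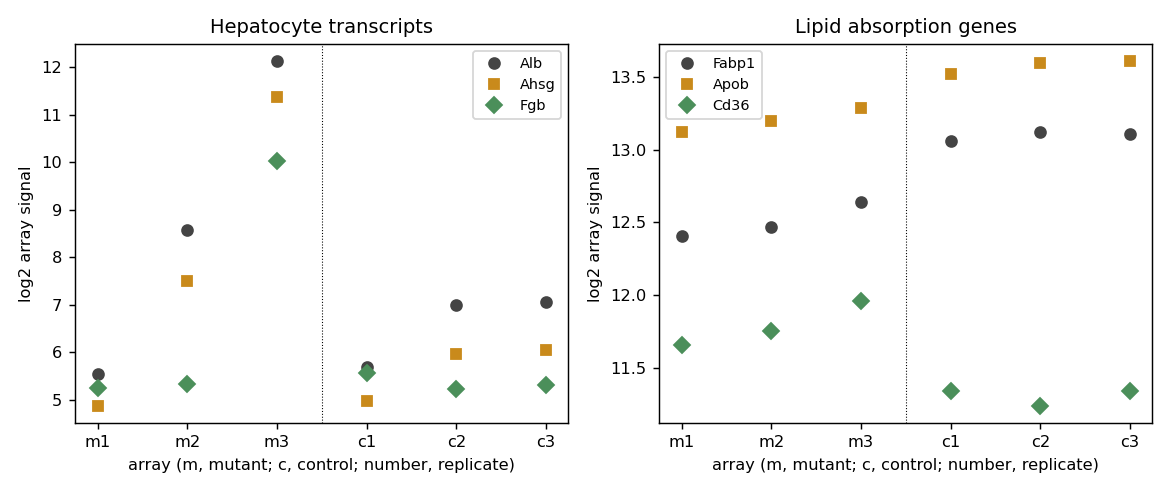
Log2 array signal of 3 hepatocyte transcripts (left) and of *Fabp1*, *Apob* and *Cd36* (right) in each mutant (m) and control (c) array. *Alb* reached 12.13 in mutant replicate 3, against at most 8.57 in the other 5 arrays, while *Fabp1* and *Apob* stayed lower and *Cd36* higher than in all control arrays.

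Next, 108 further genes of lipid handling were read in 7 lists. Of these, 16 were called higher, 27 lower and 65 not called, with a median change of -0.07. Over all probe sets these shares were 8.04% higher and 8.82% lower, and among those as bright as the 10 genes 14.6% and 14%. Most of the 108 genes were dimmer than any of the 10, so the latter shares are not matched to them in brightness. Without mutant replicate 3, 17 genes of the lists were called higher and 24 lower. When any 1 array was left out, 30 of the 43 called genes kept their call throughout. For fatty acid uptake and activation, 3 of 12 genes rose, 3 fell and 6 were not called (median -0.06). *Slc27a2*, an acyl-CoA synthetase and fatty acid transport protein, fell (9.04, 9.52 and 9.54 in mutant arrays against 10.26, 10.54 and 10.59 in control arrays, -1.10, adjusted p = 0.0025 from limma). *Scarb1*, the receptor for high-density lipoprotein, rose (11.04, 10.88 and 10.72 in mutant arrays against 10.26, 10.05 and 10.03 in control arrays, 0.77, adjusted p = 0.0025 from limma). *Scp2*, a lipid transfer protein and thiolase of peroxisomes, rose by 0.73 (adjusted p = 0.0018 from limma). *Acsl4*, an acyl-CoA synthetase that prefers arachidonic acid, rose by 0.51 (adjusted p = 0.013 from limma), a call lost without mutant replicate 2 or control replicate 2 (adjusted p up to 0.0549), and its control mean lay below the median of the arrays.

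Of 18 genes of glycerolipid synthesis, 6 rose, 3 fell and 9 were not called (median 0.06). Shares over all probe sets were 8.04% higher and 8.82% lower. *Lpin2*, a phosphatidate phosphatase on the glycerol phosphate route, rose, with 10.98, 11.01 and 10.80 in mutant arrays against 9.91, 9.74 and 9.67 in control arrays (1.16, adjusted p = 0.00024 from limma). Its relative *Lpin3* rose by 0.65 (adjusted p = 0.0014 from limma). *Mogat1*, the paralog of *Mogat2*, fell, with 5.58, 5.18 and 5.67 in mutant arrays against 6.68, 6.40 and 6.51 in control arrays (-1.05, adjusted p = 0.0019 from limma). Its mutant signals lay below the median of the arrays. *Agpat4*, an acyltransferase that makes phosphatidate, rose by 0.88 (adjusted p = 0.0061 from limma), with a control mean below that median.

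In the list of chylomicron assembly and transport, 2 of 23 genes rose, 3 fell and 18 were not called (median -0.11). By comparison, 8.04% of all probe sets were called higher and 8.82% lower. *Pla2g12b*, a catalytically inactive phospholipase relative that mouse liver needs to secrete triglyceride-rich particles, rose, with 11.27, 11.23 and 11.18 in mutant arrays against 10.41, 10.32 and 10.31 in control arrays (0.88, adjusted p = 0.00023 from limma). *Bet1*, a fusion protein of vesicles between endoplasmic reticulum and Golgi, fell, with 7.16, 7.33 and 7.57 in mutant arrays against 8.22, 8.32 and 8.41 in control arrays (-0.96, adjusted p = 0.0012 from limma). *Mia3*, which helps large cargo leave the endoplasmic reticulum, fell by 0.47 (adjusted p = 0.0064 from limma), and *Tmem41b*, a phospholipid scramblase of that membrane, rose by 0.45 (adjusted p = 0.0057 from limma). The called genes of this list went in both directions.

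None of 19 genes of lipid droplets and lipolysis rose, 3 fell and 16 were not called (median -0.13). Across the array, 8.04% of probe sets were called higher and 8.82% lower. *Acat1* fell the most, with 10.98, 11.18 and 11.30 in mutant arrays against 12.47, 12.65 and 12.65 in control arrays (-1.44, adjusted p = 0.00014 from limma). In mouse this symbol stands for the mitochondrial thiolase of ketone metabolism, which is no droplet protein. *Lipe*, the hormone-sensitive lipase, fell by 0.39 (adjusted p = 0.024 from limma), a call that was lost in 5 of 6 fits with 1 array left out and held only without mutant replicate 1. *Plin3*, a droplet coat protein, fell by 0.26 (adjusted p = 0.041 from limma), and its call was lost in all 6 such fits (adjusted p up to 0.131).

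Of 7 genes of sterol uptake, export and esterification, 4 fell, 1 rose and 2 were not called (median -0.77). The shares of all probe sets were 8.82% lower and 8.04% higher. *Abcg5* fell, with 10.20, 10.32 and 10.44 in mutant arrays against 11.27, 11.41 and 11.37 in control arrays (-1.03, adjusted p = 0.00027 from limma). *Abcg8*, its partner in the transporter that returns plant sterols and cholesterol to the gut lumen, fell by 1.00 (adjusted p = 0.00052 from limma). *Clps* fell by 1.63 (adjusted p = 0.0067 from limma), and encodes the pancreatic colipase rather than a sterol carrier. *Lrp1*, an endocytic receptor, fell by 0.77 (adjusted p = 0.039 from limma), and its call was lost in 5 of 6 fits with 1 array left out (adjusted p up to 0.129) and held without mutant replicate 3 (-1.02, adjusted p = 0.0019 from limma).

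Of 5 lipases that work in the gut lumen, 1 fell, 1 rose and 3 were not called (median -0.45). Among all probe sets, 8.82% were called lower and 8.04% higher. *Lipf*, the gastric lipase, fell, with 6.49, 6.37 and 7.52 in mutant arrays against 9.43, 9.41 and 9.54 in control arrays (-2.67, adjusted p = 0.00059 from limma). *Pnliprp2*, a lipase that serves milk fat digestion in suckling mice, rose, with 9.02, 8.86 and 8.12 in mutant arrays against 6.61, 7.18 and 7.11 in control arrays (1.70, adjusted p = 0.0028 from limma). Signals of 5 pancreatic acinar markers varied widely within both groups, with sums of 11.14, 9.36 and 10.53 in mutant arrays and 9.62, 11.21 and 11.30 in control arrays. *Clps* was 8.48, 7.25 and 8.10 in mutant arrays and 9.31, 9.70 and 9.71 in control arrays, in the same order as these sums within each group. Between the groups the order differed, since control replicate 1 had a lower sum but more *Clps* than mutant replicates 1 and 3. The part of pancreatic RNA in these values was not tested.

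**Figure D4:**
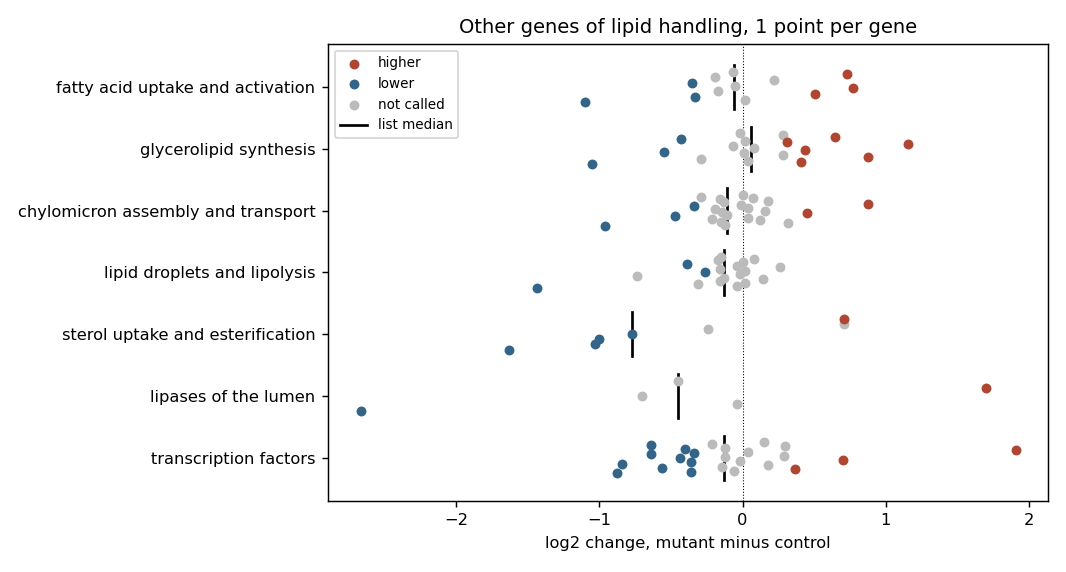
Log2 change, mutant minus control, of 108 other genes of lipid handling in 7 lists, with 1 point per gene, coloured by the call from limma (adjusted p of at most 0.05) and with a black bar for the list median. Most points lie close to 0 in the list of chylomicron assembly and transport (18 of 23 not called), and medians run from -0.77 for sterols to 0.06 for glycerolipid synthesis.

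The last list held transcription factors known to act on lipid or enterocyte genes. Of 24 measured, 3 rose, 10 fell and 11 were not called (median -0.13), against 8.04% of all probe sets higher and 8.82% lower. Among probe sets as bright as the 10 genes these shares were 14.6% and 14%, but most of the factors were dimmer than any of the 10. *Gata4* and *Onecut2* are also among the proximal markers counted above. Of these 13 calls, 7 held in all fits with 1 array left out and 6 (*Cdx2*, *Rxra*, *Esrra*, *Srebf1*, *Gata4* and *Gata6*) were lost in at least 1. *Ppargc1a*, a coactivator of mitochondrial genes, rose, with 8.06, 8.23 and 7.56 in mutant arrays against 5.81, 6.20 and 6.10 in control arrays (1.91, adjusted p = 0.00042 from limma). Its control mean lay below the median of the arrays. *Srebf2*, the regulator of cholesterol synthesis, rose by 0.70 (adjusted p = 0.0009 from limma). *Onecut2*, a factor of the duodenum, fell by 0.88 (adjusted p = 0.00093 from limma), and *Prdm1*, which maintains the suckling type of intestinal epithelium in mice, fell by 0.84 (adjusted p = 0.00098 from limma).

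Finally, the genes most like each called gene across the 6 arrays were looked up among 3784 genes that were brighter than the median probe set and varied by an SD of at least 0.2. *Fabp1* was followed most closely by *Sgk3* (Pearson's r = 0.9996, change -0.62), a serum- and glucocorticoid-regulated kinase, and *Gata6* (0.9993, -0.36), a factor of enterocyte differentiation. *Apob* was followed by *Lect2* (r = 0.9985, change -1.71) and *Fbxl21* (0.9983, -0.94), and *Dgat2* by *Gdf9* (0.9990, -1.58) and *Lbh* (0.9989, -0.95). *Mogat2* was followed by *Slc18a1* (r = 0.9997, change -0.79), a vesicular monoamine transporter of enterochromaffin cells, and *Ttc28* (0.9990, -0.57). *Cd36* was followed by *Col18a1* (r = 0.9962, change 0.39), a basement membrane collagen, and *Retnlg* (0.9948, 3.30), a resistin-like gene of neutrophils. These values describe 6 points in 2 clusters, mutant and control, so that any gene with a steady difference between the groups comes close to 1.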

How the data were processed

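RNA of P5 villi from 3 mutant and 3 control replicates was hybridised to Affymetrix whole-transcript arrays, 1 per replicate. The authors deposited a single table of log2 signals, with a value for each probe set on each array. How they corrected background, summarised probes and normalized arrays is not stated in any source used here. A legend of the study counts the replicates as littermates, and the precision is limited by 3 arrays per group.

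Groups came from the sample labels. All 30177 probe sets were compared with limma 3.58.1 (lmFit and eBayes, R 4.3.3) on the deposited log2 values without further scaling or filter, with Benjamini-Hochberg adjustment over all of them and a threshold of 0.05 (prior degrees of freedom 3.92). Intervals are 95% intervals of that fit. Exact permutation tests of 6 ratios of genes used scipy 1.17.1, tables were made with pandas 2.3.3 in Python 3.11.15 and figures with matplotlib 3.10.9. The platform annotation gave 1 symbol to 21789 probe sets, several to 1621 and none to 6767, and 21698 symbols were updated through Entrez IDs in a RefSeq table. Those lacking a single symbol were tested but not used to name a gene. List genes without a single-symbol probe set, such as *Acsl1*, *Apoc2* and *Pnlip*, were not analysed here. A marker list's sum is the log2 of its added linear signals. Promoter sequences came from RefSeq. A further motif that had been planned is not reported here.

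The 10 genes and all lists were chosen with earlier results of these data known. The text names the 10 genes, *Trpm7*, up to 4 called genes with the largest change from each lipid list, the neighbours *Apoc3* and *Apoa5*, the marker genes with the highest and lowest change, and the 2 genes most like each called gene. Other names, such as *Alb*, *Fgb*, *Adipoq* and *Vil1*, were chosen after their values were seen. The limma script was tested on simulated data. Alternatives were other variance models, array weights, a replicate block, quantile normalization, median centring, filters, an offset of 32, Student's equal-variance test, a Y-linked covariate, a fold threshold of 1.5 and each array left out. The average of control replicates 2 and 3 was added after the data were examined.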

Additional observations from a re-analysis of the deposited data

How the results depend on the processing

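Across the alternatives tried, no change of the 10 genes turned round, and the 5 that were called kept their call except as follows. *Apob* lost it without 3 of the 6 arrays, as given above, and *Cd36* by Student's equal-variance test after adjustment (0.066), under which *Apoa4* was called lower (-0.07, adjusted p = 0.034). That test therefore called 0 of the 10 genes higher, and 1116 probe sets higher and 1334 lower over the array. It called 17 genes of the lipid lists lower. With a fold change of at least 1.5 required, 0 of the 10 genes were called higher and 1 lower (*Fabp1*). Quantile normalization put the change of *Apoa4* at 0.00, since that method sets the top signal of all arrays equal. With 1 array left out, 1 of the 10 genes was called higher in every fit and 3 to 4 lower, 1561 to 2037 probe sets higher and 1688 to 2348 lower, and 13 to 17 genes of the lipid lists higher and 17 to 24 lower, with fewer arrays in the fit. *Trpm7* fell by 1.08 to 1.20 in these fits. With control replicates 2 and 3 averaged into 1, the 5 genes were still called, *Apob* narrowly (-0.36, adjusted p = 0.0474). Mutant and control arrays share replicate numbers, but deviations of same-numbered arrays from their group means correlated at only 0.174, 0.039 and 0.119, so the numbers were not taken as pairs. With the replicate number as a block, 1 of the 10 genes was called higher and 4 lower, as without it, with 2381 probe sets higher and 2576 lower. The 10 genes lie far above background, so dim signal limits them little, while the response of the array at the top of its range was not tested.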

Other observations

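The wider *Fabp* family, chosen after its values were seen, held 9 genes, of which 2 rose (*Fabp6* and *Fabp4*, given above), 2 fell (*Fabp1* and *Fabp7*) and 5 were not called, against 8.04% of all probe sets called higher and 8.82% lower. *Fabp7*, the form of the developing brain, fell by 0.36 (adjusted p = 0.0498 from limma), a call lost in all 6 fits with 1 array left out. *Fabp5*, the epidermal form, was 6.19, 6.31 and 6.55 in mutant and 6.10, 6.39 and 6.55 in control arrays (0.00, adjusted p = 0.990 from limma).

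*Apoa2*, an apolipoprotein of high-density lipoprotein made mainly by liver, was 6.10, 6.83 and 8.71 in mutant replicates 1 to 3, against 7.11, 7.57 and 7.29 in control arrays (-0.11, adjusted p = 0.924 from limma). It was highest in the array with the highest *Alb*, and lowest in the mutant array with the lowest. *Lipf*, which fell, and *Pnliprp2*, which rose, lay nearest to control values in mutant replicate 3. *Slc27a2*, which fell, was 9.54 there and 9.52 in mutant replicate 2, too close to tell apart. How many other genes lay so was not counted, and *Cd36*, which rose, lay farthest from control values in mutant replicate 3. Without that array *Lipf* fell by 3.03 and *Pnliprp2* rose by 1.97. Of 4 erythroid markers 1 could be read, *Alas2*, which was not called (0.43, adjusted p = 0.453 from limma).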
